A study of Homo sapiens with 12 samples.

Results

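EZH2 siRNA was compared with control siRNA in SKOV3ip cells, which derive from the human ovarian carcinoma line SKOV3, on 4 arrays a side. The 8 arrays were chosen by their sample labels and belong to a series of 12. The groups used below are cells transfected with an siRNA against EZH2 (EZH2 siRNA), cells transfected with a scrambled siRNA (control siRNA), and untransfected cells that received no siRNA. The labels name the cells SKOV3ip in the sample titles and SKOV3 in the source field, and they state no siRNA sequence, dose or time. The number of different EZH2 siRNAs is not given in the sources used here, and no array carries a restored EZH2. Whether the arrays of a group are separate cultures is also not given, so the p-values cover array-to-array spread only, and that spread may be technical. The series is titled for the regulation of angiogenesis by EZH2.

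EZH2 is the catalytic subunit of Polycomb repressive complex 2 (PRC2), which methylates a lysine of histone H3 and thereby keeps target genes silent. Its partners SUZ12 and EED are needed for the enzyme to work, and EZH1 is a related methyltransferase that can stand in its place. EZH2 is often abundant in ovarian and other carcinomas. An siRNA is a short double-stranded RNA that directs the Argonaute protein AGO2 to cleave a matching mRNA. Such RNAs can also act on partly matching mRNAs and can set off the interferon response. A scrambled siRNA serves as the control for transfection with such an RNA. Its sequence differs, so it does not control for partial matches of the EZH2 siRNA itself. Whether changes below came from loss of EZH2 or from such matches was not tested.

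All levels are log2 values of bead-array intensity after background correction and quantile normalisation, and changes are differences of these log2 values (EZH2 siRNA minus control siRNA unless another pair is named). A probe was tested if it stood above the array background on at least 4 of the 12 arrays, which left 17363 of 48803 probes and 10990 named genes. Each gene is given by its brightest tested probe, and a gene is called if its adjusted p is under 0.05 in limma. The gene lists and families below were chosen with earlier results of these data known. Their called shares are therefore descriptions, and a share above that of all tested genes is no independent evidence. Called genes were also brighter, with a median level of 8.81 for rises and 8.86 for falls against 7.81 over all tested genes. The EZH2 siRNA arrays were dimmer, with a mean raw signal of 240 ± 50.2 intensity units (SD, n = 4) against 327 ± 41.7 with control siRNA and 299 ± 106 in untransfected cells. Arrays 1 and 4 of EZH2 siRNA and array 4 of untransfected cells had a mean signal under 250, and counts are also given without these 3 arrays. All 7 SKOV3 marker genes were tested and 0 were called in limma (3 were higher at an unadjusted p under 0.05), while of 15 endothelial, fibroblast and leukocyte markers 2 were bright enough to test. The number of arrays limits the precision, and the median standard error of a change was 0.132.

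The targeted mRNA fell. EZH2 had levels of 6.51, 6.80, 6.95 and 6.45 on EZH2 siRNA arrays 1 to 4, against 7.47, 7.67, 7.73 and 7.36 with control siRNA and 7.95, 7.77, 7.86 and 8.36 in untransfected cells. No EZH2 siRNA array overlapped with an array of either other group. The change was -0.88 (SE 0.15, adjusted p = 0.00133; exact two-sided permutation p = 0.0286, the smallest that 4 against 4 arrays allow). EZH2 was 1.31 lower with EZH2 siRNA than in untransfected cells, and the change from control siRNA minus untransfected cells was -0.43 (adjusted p = 0.0878). Of the other EZH2 probes, one fell by 0.67 (adjusted p = 0.0174) and one had a change of -0.53 (adjusted p = 0.0592). Control siRNA minus untransfected cells was -0.62 on the first (adjusted p = 0.0192, a called fall) and -0.42 on the second (adjusted p = 0.126). On the second probe EZH2 siRNA arrays 2 and 3 (6.729 and 6.691) lay above control siRNA array 4 (6.665), so those groups overlapped. Scaling to the 75th percentile of those probes that exceeded background on every array ended the EZH2 call (-0.59, adjusted p = 0.188). Among 24 tested genes of PRC2, PRC1 and the matching demethylases, EZH2 alone was called (4.17%, against 4.88% of all tested genes). The change of SUZ12 was 0.11 and that of EED -0.37.

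**Figure D1:**
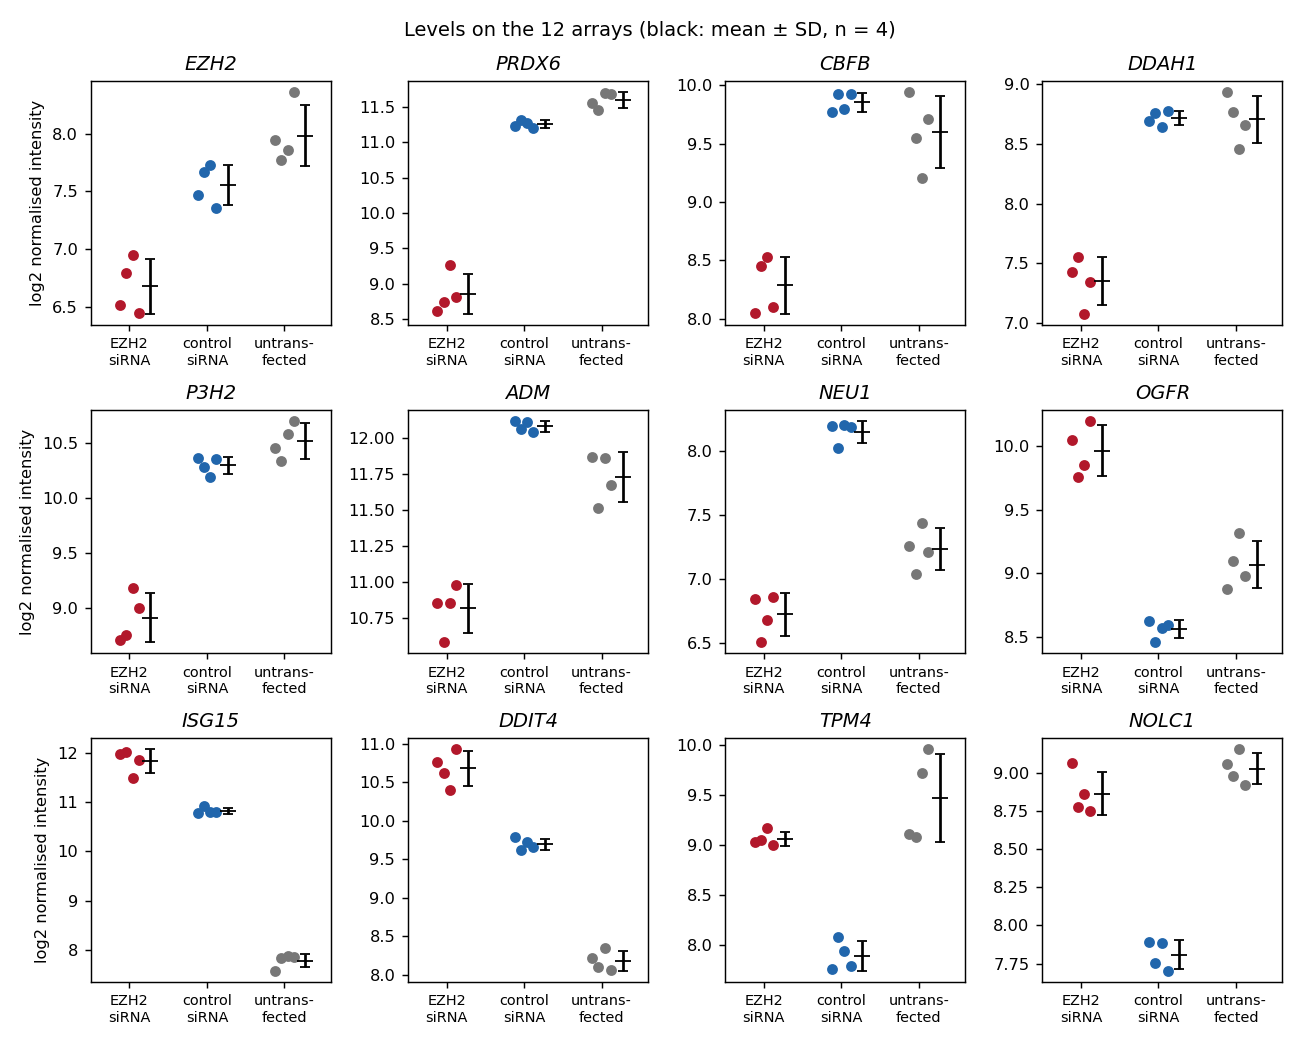
Levels of EZH2 and 11 genes with large changes on each of the 12 arrays, as log2 normalised intensity, with the mean and SD of each group (n = 4) in black. PRDX6, CBFB, DDAH1, P3H2 and ADM lie low on the EZH2 siRNA arrays alone, ISG15 and DDIT4 step up in both transfected groups, and TPM4 and NOLC1 are low with control siRNA.

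Across all genes, 536 of 10990 were called against control siRNA (4.88%), 228 of them higher (2.07%) and 308 lower (2.8%) with EZH2 siRNA. Most changes were modest. The median size of a called change was 0.60, and 9 genes rose and 28 fell at least 2-fold. On the probe level 733 of 17363 were called (4.22%), 318 higher (1.83%) and 415 lower (2.39%). Without the 3 dim arrays, 49 genes rose and 80 fell, 120 of them among the 536, and all 536 kept their direction. Leaving out single arrays moved the probe counts to between 99 higher and 184 lower without EZH2 siRNA array 1 and 642 higher and 651 lower without EZH2 siRNA array 3. Scaling to the 75th percentile over all probes moved the median of all genes to -0.16 and called 9 probes higher and 135 lower, so that 6.25% of calls were rises against 43.4% in the main setting. Scaling by probes that stood above background on all arrays moved that median to 0.18. For 463 of the 536 genes the 4 EZH2 siRNA arrays did not overlap with the 4 control siRNA arrays, as they did not for 11.5% of all tested genes.

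Each called gene was then looked up in both comparisons with the untransfected arrays, which share their EZH2 siRNA or control siRNA arrays with the comparison above. Against untransfected cells 2066 genes were called with EZH2 siRNA (18.8%) and 862 with control siRNA (7.84%), 540 of these 862 higher (4.91%) and 322 lower (2.93%). A change is described as held if EZH2 siRNA also differed from untransfected cells in the same direction. It is described as only undoing a control siRNA change if control siRNA had moved the gene the opposite way from untransfected cells and the EZH2 siRNA arrays had no call against the untransfected ones. By these rules 309 of the 536 changes were held (57.6%) and 55 only undid a control siRNA change (10.3%). Another 8 partly undid one, and for 164 (30.6%) neither other comparison was called. All 164 had the same sign against untransfected cells, with a median size of 0.29, but the class rule fixes that sign. An opposite sign would need an opposite control siRNA change larger than the called one, and such a gene would fall in another class.

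Of the 309 held changes, 270 were in genes that control siRNA had not changed by the test. A further 32 added to a change that control siRNA had made in the same direction, and 7 went past the untransfected level after control siRNA had moved the gene the other way. For the 32, the call against untransfected cells follows from the 2 steps in one direction. Being held is therefore no further evidence for the EZH2 siRNA step in these genes. For the 55 changes that only undid a control siRNA effect, EZH2 siRNA lay within 0.5 of untransfected cells in every gene, and the 95% confidence interval of that difference had a median full width of 0.54, so that small differences were not detectable. By direction, 54.4% of the rises were held and 15.8% only undid a control change, against 60.1% and 6.17% of the falls. Among large changes, all 28 falls of at least 2-fold were held, while of 9 such rises 3 were held, 4 only undid a control siRNA fall, 1 partly undid one and 1 belonged to neither class. Without the 3 dim arrays 63 held and 35 only undone changes were called. Some of the falls of at least 2-fold were then no longer held. CLDN1 and AMER1 only undid a control siRNA change, CMTM4 belonged to neither class, and CCNG1, DYNLT3 and FKBP14 were not called. Without EZH2 siRNA array 1 there were 121 held changes and without EZH2 siRNA array 3 there were 550, and the only undone changes numbered between 29 (without control siRNA array 3) and 92 (without EZH2 siRNA array 3). No test of the difference between rises and falls was made.

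**Figure D2:**
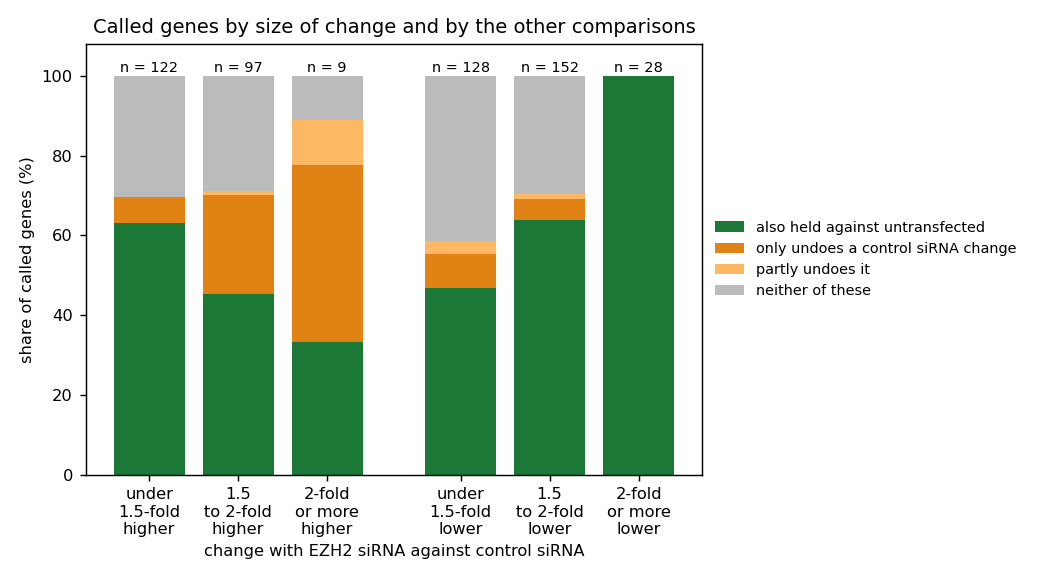
Share of called genes in each class (%), by direction and size of the change with EZH2 siRNA against control siRNA, with the number of genes above each bar. All 28 falls of at least 2-fold also held against untransfected cells, against 3 of 9 rises of that size.

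The largest held falls were those of PRDX6, CBFB, DIPK2A, MTPN, NEU1, P3H2 and DDAH1. Each was larger than the fall of EZH2 itself (-0.88). Loss of EZH2 and partial matches of its siRNA cannot be told apart for these genes. PRDX6, a peroxiredoxin that reduces phospholipid hydroperoxides, had levels of 8.62, 8.75, 9.26 and 8.81 with EZH2 siRNA against 11.23, 11.32, 11.28 and 11.21 with control siRNA and 11.55, 11.46, 11.70 and 11.68 in untransfected cells. Its arrays were far apart, and no other gene fell as much (-2.40, SE 0.13, adjusted p = 8.44e-10). The other peroxiredoxin called, PRDX4 of the endoplasmic reticulum, rose by 0.61 and only undid a control siRNA fall. Of 33 tested genes of peroxide and thiol redox metabolism these were the 2 called (6.06%, near the 4.88% of all genes).

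CBFB, which binds RUNX transcription factors and strengthens their hold on DNA, had levels of 8.05, 8.45, 8.53 and 8.10 with EZH2 siRNA against 9.77, 9.92, 9.80 and 9.93 with control siRNA and 9.94, 9.55, 9.21 and 9.71 in untransfected cells. The fall was 1.57 (SE 0.15, adjusted p = 2.43e-06) on the brighter probe, while another CBFB probe changed by -0.25 and was not called. DDAH1, which breaks down asymmetric dimethylarginine, an inhibitor of nitric oxide synthases, had 7.43, 7.55, 7.08 and 7.35 with EZH2 siRNA against 8.69, 8.76, 8.64 and 8.78 with control siRNA and 8.94, 8.77, 8.46 and 8.66 in untransfected cells. Control siRNA minus untransfected cells was 0.01 for DDAH1, and the fall with EZH2 siRNA was 1.37 (adjusted p = 2.37e-06). DIPK2A fell by 1.49, HPRT1, which recycles purine bases and commonly serves as a housekeeping control, by 1.23, and PTPN12, a protein tyrosine phosphatase, by 1.18. All 3 were held, and control siRNA had not changed any of them by the test.

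Several genes that act on collagen and matrix fell. P3H2, a collagen prolyl hydroxylase, had 8.72, 8.76, 9.18 and 9.01 with EZH2 siRNA against 10.36, 10.28, 10.19 and 10.35 with control siRNA and 10.45, 10.33, 10.58 and 10.70 in untransfected cells, a fall of 1.38 (adjusted p = 2.23e-06). SERPINH1, the collagen chaperone of the endoplasmic reticulum, had 9.60, 9.11, 8.75 and 9.57 with EZH2 siRNA against 10.43, 10.26, 10.33 and 10.23 with control siRNA and 10.23, 10.12, 10.59 and 10.36 in untransfected cells, a fall of 1.06 (adjusted p = 0.000602). In both genes the EZH2 siRNA arrays lay below all other arrays. Of 40 tested collagen-modifying enzymes and proteases 6 fell and 0 rose in limma (15% called; 2 higher and 8 lower at an unadjusted p under 0.05). Their median change was -0.05, against -0.02 over all genes. The other falls were the protease ADAMTS1 (-0.86, held), the plasminogen activators PLAT (-0.63) and PLAU (-0.44), both partly undone, and MMP3 (-0.59, only undone). Of 29 basement membrane and matrix genes 4 fell and 0 rose (0 higher and 9 lower at an unadjusted p under 0.05): THBS1, COL4A1 (-0.63, held), LAMB1 (-0.71, only undone) and LAMC1 (-0.46, neither). The called shares of these lists, 15% and 13.8%, compare with 4.88% of all genes, but the lists were chosen with earlier results known. FKBP14, a prolyl isomerase of the endoplasmic reticulum that acts on procollagen, was in no list and was chosen after its values were seen. It fell by 1.01 and was held, though not called without the 3 dim arrays. Without these arrays 4 of the 6 and 2 of the 4 list genes were called.

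THBS1, the secreted angiogenesis inhibitor thrombospondin, had 10.83, 10.72, 11.21 and 11.19 with EZH2 siRNA against 11.92, 12.28, 12.01 and 12.05 with control siRNA and 13.02, 12.53, 12.94 and 13.25 in untransfected cells. The 3 groups lay on separate steps: control siRNA was 0.87 lower than untransfected cells and EZH2 siRNA a further 1.08 lower (adjusted p = 0.000261). CCN2, a matrix-associated growth factor, had 10.56, 10.68, 11.07 and 10.79 with EZH2 siRNA against 11.74, 11.86, 11.88 and 11.91 with control siRNA and 11.85, 11.69, 11.97 and 11.67 in untransfected cells. Its fall of 1.07 (adjusted p = 3.82e-05) was held, with control siRNA at the untransfected level. Both belong to a list of YAP and SRF target genes, in which 5 of 28 tested genes fell and TEAD4, a DNA-binding partner of YAP, rose by 0.53 (21.4% called, against 4.88% of all genes). The median change of that list was -0.19, and it stayed below 0 in the 7 scaling, background and probe alternatives (-0.46 to -0.11). The other falls were AXL (-0.73, held), a receptor tyrosine kinase, PTPN14 (-0.62) and VCL (-0.57), while CCN1, a close relative of CCN2, changed by 0.02. Without the dim arrays 3 of the 6 calls remained.

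Both angiogenic factors and angiogenesis inhibitors were among the falls. Of 33 tested angiogenic factors 4 fell and 0 rose in limma (3 higher and 9 lower at an unadjusted p under 0.05; median -0.07), which is 12.1% called against 4.88% of all genes. Of 17 genes listed under angiogenesis inhibitors 3 fell and 0 rose (17.6% called, 0 higher and 4 lower unadjusted, median -0.12). ADM, the vasodilator peptide adrenomedullin, had 10.85, 10.58, 10.85 and 10.98 with EZH2 siRNA against 12.12, 12.06, 12.11 and 12.04 with control siRNA and 11.87, 11.51, 11.86 and 11.67 in untransfected cells. Its fall of 1.27 (SE 0.12, adjusted p = 2.37e-06) left it 0.91 below untransfected cells. HBEGF, an EGF receptor ligand, had 9.79, 9.84, 10.17 and 10.20 with EZH2 siRNA against 10.53, 10.59, 10.37 and 10.51 with control siRNA and 8.77, 9.03, 9.03 and 8.99 in untransfected cells, so its fall of 0.50 (adjusted p = 0.0244) undid part of a control siRNA rise. VASH1, an inhibitor named in work on EZH2 and vessels, changed by 0.09 (adjusted p = 0.747), and VEGFA, the main vessel growth factor, by 0.12 (adjusted p = 0.753). The 3 fallen genes of the inhibitor list, THBS1, ADAMTS1 and COL4A1, were all held. THBS1 and COL4A1 are also counted above as basement membrane and matrix genes, and ADAMTS1 with the collagen-modifying enzymes and proteases. THBS1 and CCN2 are also in the YAP and SRF list. The called shares of these lists thus rest in part on the same genes. THBS1, ADAMTS1, COL4A1 and the factors ADM and CCN2 were also called without the 3 dim arrays, and HBEGF was not (adjusted p = 0.123).

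The actin cytoskeleton list had 5 falls and 1 rise among 55 tested genes (10.9% called, against 4.88% of all genes; median -0.09). MTPN, a protein that binds the actin capping protein, had 9.42, 10.01, 9.78 and 9.47 with EZH2 siRNA against 11, 11.20, 11.07 and 11.16 with control siRNA and 11.49, 11.40, 11.15 and 11.12 in untransfected cells, a held fall of 1.44 (adjusted p = 2.43e-06) found on both of its probes. PALLD, an actin-bundling scaffold, fell by 0.93, CALD1 (caldesmon) by 0.76, CNN3 (calponin) by 0.49 and VCL (vinculin) by 0.57. All but VCL were held, and CNN3 and VCL were not called without the 3 dim arrays. TPM4, a tropomyosin, was the single rise and belonged to the other class: it had 9.03, 9.05, 9.17 and 9.0 with EZH2 siRNA against 7.76, 8.08, 7.94 and 7.79 with control siRNA and 9.11, 9.08, 9.72 and 9.96 in untransfected cells. Control siRNA arrays were the low ones here, 1.58 below untransfected cells, and the rise of 1.17 (adjusted p = 0.000234) left EZH2 siRNA -0.41 from untransfected cells (adjusted p = 0.0935).

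Genes of secretory traffic and glycosylation were also called. Of 64 tested genes of COPI, COPII and Golgi traffic 4 fell and 0 rose in limma (9 higher and 9 lower at an unadjusted p under 0.05). The called share, 6.25%, was near the 4.88% of all genes, and without the 3 dim arrays TMED10 was the one call of the 4. TMED10, a cargo receptor of the early secretory pathway, had 6.98, 7.13, 6.90 and 6.92 with EZH2 siRNA against 7.93, 8.33, 8.31 and 7.94 with control siRNA and 8.56, 8.28, 8.24 and 8.96 in untransfected cells, a held fall of 1.15 (adjusted p = 0.000116). In N-glycosylation 3 of 36 fell, all held (MAN2A1, -1.04; MGAT2, -0.67; MAGT1, -0.66), and 2 rose, of which DPM3, a mannose donor enzyme subunit, was held (0.84) and the glucosidase subunit GANAB (0.88) only undid a control siRNA fall. Of these 5 (13.9% of the list), MAN2A1 and GANAB were called without the 3 dim arrays. SLC35A3, a Golgi nucleotide-sugar transporter chosen after its values were seen, fell by 0.88 and was held, but was not called without those arrays. NEU1, a lysosomal sialidase that removes sialic acid from such glycans, had 6.84, 6.50, 6.68 and 6.85 with EZH2 siRNA against 8.19, 8.02, 8.20 and 8.18 with control siRNA and 7.25, 7.04, 7.43 and 7.21 in untransfected cells. Control siRNA had raised NEU1 by 0.92, and EZH2 siRNA took it to 0.51 below untransfected cells (change -1.43, adjusted p = 1.28e-06).

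Of the lists, interferon-induced genes had the most rises. Of 51 tested, 10 rose (19.6%, against 2.07% of all genes) and 0 fell in limma, with 16 higher and 2 lower at an unadjusted p under 0.05. The list's median change was 0.15, and -0.03 under the 75th percentile scaling over all probes, where the median of all genes was -0.16. It lay 0.17 above the median of all genes in the main setting. Over the scaling, background and probe alternatives that distance was 0.12 to 0.23. Control siRNA had itself raised 45 of the 51 above untransfected cells (4.91% of all genes rose in that comparison), and all 10 rises with EZH2 siRNA came on top of such a rise. ISG15, a ubiquitin-like protein, had 11.97, 12.02, 11.48 and 11.86 with EZH2 siRNA against 10.77, 10.92, 10.79 and 10.80 with control siRNA and 7.58, 7.83, 7.87 and 7.86 in untransfected cells. The added step of 1.01 (SE 0.13, adjusted p = 7.55e-05) was small beside the control siRNA step of 3.04. BST2, a membrane protein that tethers budding viruses, had 11.55, 11.31, 10.86 and 11.28 with EZH2 siRNA against 10.61, 10.36, 10.65 and 10.78 with control siRNA and 9.39, 9.49, 9.17 and 8.97 in untransfected cells, a rise of 0.65 (adjusted p = 0.0164). Smaller rises were those of the immunoproteasome subunit PSMB9 (0.65), IFI27 (0.62), IFI35 (0.59), UBE2L6 (0.52), OASL (0.52), IFIT1 (0.51), IRF7 (0.50) and IFIT3 (0.48). A second PSMB9 probe changed by -0.09 and was not called. MX1, an antiviral GTPase that control siRNA raised by 4.53, changed by 0.32 (adjusted p = 0.193). Without the 3 dim arrays ISG15 and IFIT1 were called, and all 10 kept their direction.

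The 250 bases upstream of the ISG15 and BST2 starts are shown because these are the 2 called interferon genes with the largest rise; capitals mark matches to the core of the interferon-stimulated response element (GAAA, NN, GAAA), and the RefSeq sequences are on GRCh38.p14.
ISG15 (chr1:1013247-1013496, plus strand): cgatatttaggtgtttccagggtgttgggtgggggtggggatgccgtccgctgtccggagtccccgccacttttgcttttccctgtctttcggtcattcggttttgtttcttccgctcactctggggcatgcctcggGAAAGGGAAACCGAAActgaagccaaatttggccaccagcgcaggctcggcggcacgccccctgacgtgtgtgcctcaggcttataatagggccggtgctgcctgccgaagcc
BST2 (chr19:17405631-17405880, minus strand): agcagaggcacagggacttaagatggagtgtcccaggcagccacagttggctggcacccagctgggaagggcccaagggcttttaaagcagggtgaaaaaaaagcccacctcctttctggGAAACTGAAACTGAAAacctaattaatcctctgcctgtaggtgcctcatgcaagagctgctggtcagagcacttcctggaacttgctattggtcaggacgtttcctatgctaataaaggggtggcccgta
Each holds 2 overlapping matches that together span 16 bases. Searched on both strands of the same window, the motif was found in 62.5% of the 8 risen interferon genes with a promoter in the table, in 55.6% of the 36 uncalled ones and in 2.3% of the 8986 tested genes with a promoter. It was found in 5.24% of the promoters of all risen genes and 2.33% of those of fallen genes. A match describes the letters of the window and is no evidence of a bound factor.

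Genes of the ATF4 stress program, which adjusts amino acid supply, had 5 rises and 0 falls in limma among 35 tested. That is 14.3% called, against 4.88% of all genes, with 11 higher and 4 lower at an unadjusted p under 0.05. The list's median was 0.12, and -0.157 under the 75th percentile scaling over all probes, where the median of all genes was -0.163. It lay 0.15 above the median of all genes in the main setting. Over the scaling, background and probe alternatives that distance was 0.006 to 0.17. DDIT4, an inhibitor of mTORC1, had 10.76, 10.62, 10.40 and 10.93 with EZH2 siRNA against 9.78, 9.62, 9.72 and 9.66 with control siRNA and 8.22, 8.09, 8.35 and 8.06 in untransfected cells. As with ISG15, the groups formed steps, and the rise of 0.98 (adjusted p = 7.55e-05) added to a control siRNA rise of 1.52. The transcription factor DDIT3 (CHOP) rose by 0.55 and the pseudokinase TRIB3 by 0.51, both on top of a control rise. PCK2, a mitochondrial enzyme of glucose synthesis, rose by 0.67 with no called control change on 1 of its 3 tested probes. Another PCK2 probe changed by -0.16, and the mean over its probes (0.27) was not called. PHGDH, the entry enzyme of serine synthesis, rose by 0.48 without a call against untransfected cells. ATF4 mRNA itself changed by 0.25 (adjusted p = 0.24) and ASNS, a common target, by 0.14 (adjusted p = 0.609). Without the dim arrays DDIT4 and PCK2 were called. The 250 bases before the DDIT4 start, shown as the risen gene of this list with the largest change, hold no match to the amino acid response element TGATGNAAN on either strand.
DDIT4 (chr10:72273674-72273923, plus strand): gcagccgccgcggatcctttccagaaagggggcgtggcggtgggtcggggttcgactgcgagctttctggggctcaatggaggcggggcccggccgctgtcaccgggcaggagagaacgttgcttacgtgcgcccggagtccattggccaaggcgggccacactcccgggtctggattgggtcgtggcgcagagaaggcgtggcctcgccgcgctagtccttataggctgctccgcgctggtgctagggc
That motif was found in 1.56% of tested genes with a promoter, in 10.3% of the 29 such genes of the ATF4 list and in 0 of the 5 that rose.

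In the BCL2 family and caspases 4 of 34 tested genes rose and 3 fell (20.6% called, against 4.88% of all genes), and the members pointed in different directions. BAX, which permeabilises the mitochondrial membrane, had 10.36, 9.61, 9.16 and 9.68 with EZH2 siRNA against 9.04, 8.84, 8.88 and 9.12 with control siRNA and 8.87, 9.03, 9.08 and 9.41 in untransfected cells, a rise of 0.73 (adjusted p = 0.0262). EZH2 siRNA array 1 was the highest, and array 3 lay within the untransfected range. The pro-apoptotic BIK rose by 0.67 (held), BOK by 0.67 (only undone) and the mitochondrial nuclease ENDOG by 0.63 (neither). APAF1, the scaffold of the apoptosome, fell by 0.56 (neither), and of the survival genes BIRC2 fell by 0.89 (held) and MCL1 by 0.50 (only undone). Without the 3 dim arrays BIK was the one call of the 7. CCNG1 (cyclin G1), a p53 target like BAX, had 6.90, 7.69, 7.44 and 7.17 with EZH2 siRNA against 7.97, 8.42, 8.62 and 8.51 with control siRNA and 8.68, 8.81, 8.05 and 8.28 in untransfected cells, a held fall of 1.08 (adjusted p = 0.00166) that was not called without the dim arrays.

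The largest rises were mostly in genes that control siRNA had lowered. Of the 20 largest rises, 15 were in genes with an opposite control siRNA change, and 12 of these only undid it. Of all 536 called genes, 70 had an opposite control siRNA change. Both comparisons use the same control siRNA arrays, so picking large rises favours genes with low control siRNA values. Among the 20 largest falls 3 had an opposite control change and all 20 were held. Without the 3 dim arrays CLDN1 and AMER1 among these falls only undid a control siRNA change. NOLC1, a nucleolar phosphoprotein, had 9.07, 8.78, 8.86 and 8.75 with EZH2 siRNA against 7.89, 7.75, 7.89 and 7.70 with control siRNA and 9.06, 8.98, 9.16 and 8.92 in untransfected cells. Its control siRNA arrays stood alone at the low end, and the rise of 1.06 (adjusted p = 1.4e-05) ended -0.16 from untransfected cells. CHST14, a sulfotransferase of dermatan sulfate, had 8.80, 8.51, 8.68 and 8.87 with EZH2 siRNA against 7.69, 7.33, 7.69 and 7.81 with control siRNA and 8.55, 8.55, 9.07 and 9.03 in untransfected cells, a rise of 1.09 (adjusted p = 0.000144). HABP4 (1.17), ELFN2 (0.98), the palmitoyltransferase ZDHHC16 (0.95), the mitochondrial import receptor TOMM22 (0.93), the kinetochore protein ZW10 (0.91), GANAB (0.88), the G-protein regulator RGS19 (0.86), CGB5 (0.84) and RPUSD1 (0.84) had the same pattern. CGB5 encodes a chorionic gonadotropin beta chain and has near-identical copies, so its probe may read several genes. It was the one gene of these 11 not called without the 3 dim arrays, and a second ELFN2 probe changed by -0.05.

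In the other direction, 19 falls only undid a control siRNA rise. Their number includes both called genes of the microRNA and siRNA machinery (18 tested, 11.1% called, against 4.88% of all genes). AGO2, the slicer Argonaute that siRNAs load, had 8.45, 8.71, 8.77 and 8.22 with EZH2 siRNA against 9.26, 9.32, 9.37 and 9.49 with control siRNA and 8.46, 8.66, 8.61 and 8.85 in untransfected cells, a fall of 0.82 (adjusted p = 0.00094). DICER1, which cuts microRNA precursors, had 7.45, 7.50, 7.28 and 7.62 with EZH2 siRNA against 8.21, 8.20, 8.16 and 7.95 with control siRNA and 7.63, 7.83, 7.59 and 7.36 in untransfected cells, a fall of 0.66 (adjusted p = 0.00356). In both genes the control siRNA arrays were the high ones and the other groups overlapped. LPXN, a focal adhesion protein, fell by 0.89, the MAP kinase phosphatase DUSP6 by 0.78, LRIG1 by 0.75, the replication factor ORC6 by 0.72 and LAMB1 by 0.71 in the same pattern. LRIG1, ORC6 and LAMB1 were not called without the 3 dim arrays, and a second ORC6 probe changed by 0.04. Of 31 tested NF-kB and inflammatory genes control siRNA had raised 18. With EZH2 siRNA TNFAIP3 (-0.64) and TNF (-0.45) partly undid that rise, NFKBIZ (-0.58) only undid it, and IER3 rose further (0.63). These were the 4 calls of that list (12.9%, against 4.88% of all genes). IER3 was the one called without the 3 dim arrays, and a second NFKBIZ probe changed by 0.05.

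**Figure D3:**
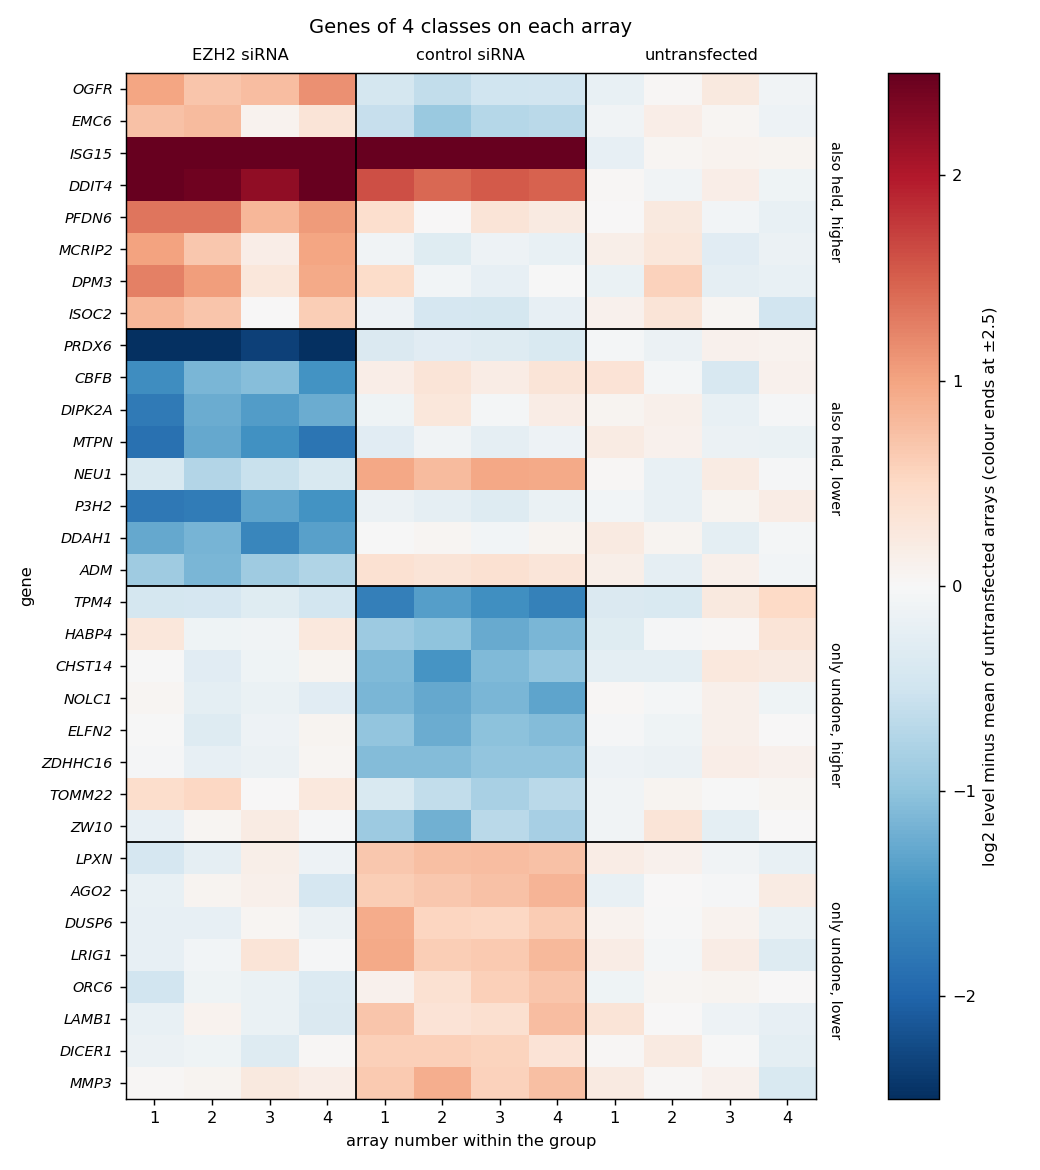
Level on each array relative to the mean of the untransfected arrays (log2; red above, blue below, colour ends at ±2.5) for the 8 genes with the largest change in each of 4 classes. In the upper blocks the EZH2 siRNA columns mostly stand apart from the untransfected columns, though an EZH2 siRNA array of EMC6 does not. The control siRNA columns also stand apart there for some genes, such as ISG15, DDIT4 and NEU1. In the lower blocks the control siRNA columns stand apart.

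Some large rises also held against untransfected cells. OGFR, the opioid growth factor receptor, had 10.05, 9.76, 9.85 and 10.20 with EZH2 siRNA against 8.62, 8.46, 8.57 and 8.60 with control siRNA and 8.88, 9.10, 9.31 and 8.98 in untransfected cells, and went past the untransfected level (1.40, adjusted p = 2.23e-06; 0.90 against untransfected cells). EMC6, a subunit of the membrane protein insertase EMC, did the same (1.21, adjusted p = 5.62e-05), with levels of 11.29, 11.35, 10.63 and 10.88 with EZH2 siRNA against 9.97, 9.63, 9.83 and 9.88 with control siRNA and 10.46, 10.71, 10.60 and 10.43 in untransfected cells. Array 3 of EZH2 siRNA lay within the untransfected range of EMC6, and without the 3 dim arrays EMC6 was no longer held. PFDN6, a prefoldin subunit, rose by 0.90 with levels of 9.25, 9.24, 8.74 and 8.98 with EZH2 siRNA against 8.33, 7.93, 8.23 and 8.13 with control siRNA and 7.93, 8.16, 7.84 and 7.73 in untransfected cells. MCRIP2 (0.88), ISOC2 (0.84) and the proteoglycan SDC4 (0.82) were also held, with no called control change, but none of these 3 was called without the 3 dim arrays (adjusted p = 0.141, 0.0989 and 0.0782). CYP1B1, a xenobiotic-metabolising cytochrome, rose by 1.0 but stayed 0.46 below untransfected cells. TRIM16L rose by 1.38 with arrays that overlapped: 8.71, 6.96, 7.38 and 8.70 with EZH2 siRNA against 7.03, 6.29, 6.54 and 6.35 with control siRNA and 6.89, 6.69, 6.75 and 8.06 in untransfected cells. The dim arrays 1 and 4 of EZH2 siRNA and array 4 of untransfected cells held its highest values, and without them its change was 0.62 (adjusted p = 0.163).

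Over all 51 lists, 23 had at least 3 called genes, 26 had 1 or 2, and 2 had 0 calls in limma, namely autophagy (38 tested) and the vacuolar ATPase (16 tested). At an unadjusted p under 0.05 the first had 1 gene higher and 1 lower, and the second 3 higher and 3 lower. Sterol and fatty acid synthesis had 16.2% of 37 tested genes called, against 4.88% of all genes. The falls were IDI1 (-0.75), HSD17B7 (-0.79), ACSL1 (-0.65) and ELOVL5 (-0.43), and PMVK (0.60) and TM7SF2 (0.52) rose. None of the 6 was called without the dim arrays. Shares called in the lists that follow compare with 4.88% of all genes. In the TCA cycle and fatty acid oxidation (10.9% called) 3 of 46 fell, with DLAT, the acetyltransferase of the pyruvate dehydrogenase complex, at -1.05, ACO1 at -0.86 and SDHD at -0.67, and ETFB (0.69) and PCK2 rose. All 5 were held, and DLAT and PCK2 were called without the dim arrays. Cell-cell junctions had 3 falls and 1 rise among 29 (13.8%), with CLDN1, a tight junction protein, falling past the untransfected level (-1.06) and CLDN7 rising (0.44). CLDN1 was the one call left without the dim arrays, and there it was no longer held and only undid a control siRNA change. Receptor tyrosine kinases and ligands had 3 falls (AXL; EGFR, -0.48; HBEGF) and 1 rise (FGFBP1, 0.49) among 43 (9.3%), and none of the 4 was called without the dim arrays. Of 52 genes of mitosis and cytokinesis, 25 of which control siRNA lowered, ANLN (-0.52) and PRC1 (-0.45) fell (3.85%, under the share of all genes). Control siRNA had lowered ANLN but was not called for PRC1, and neither gene was called without the dim arrays.

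**Figure D4:**
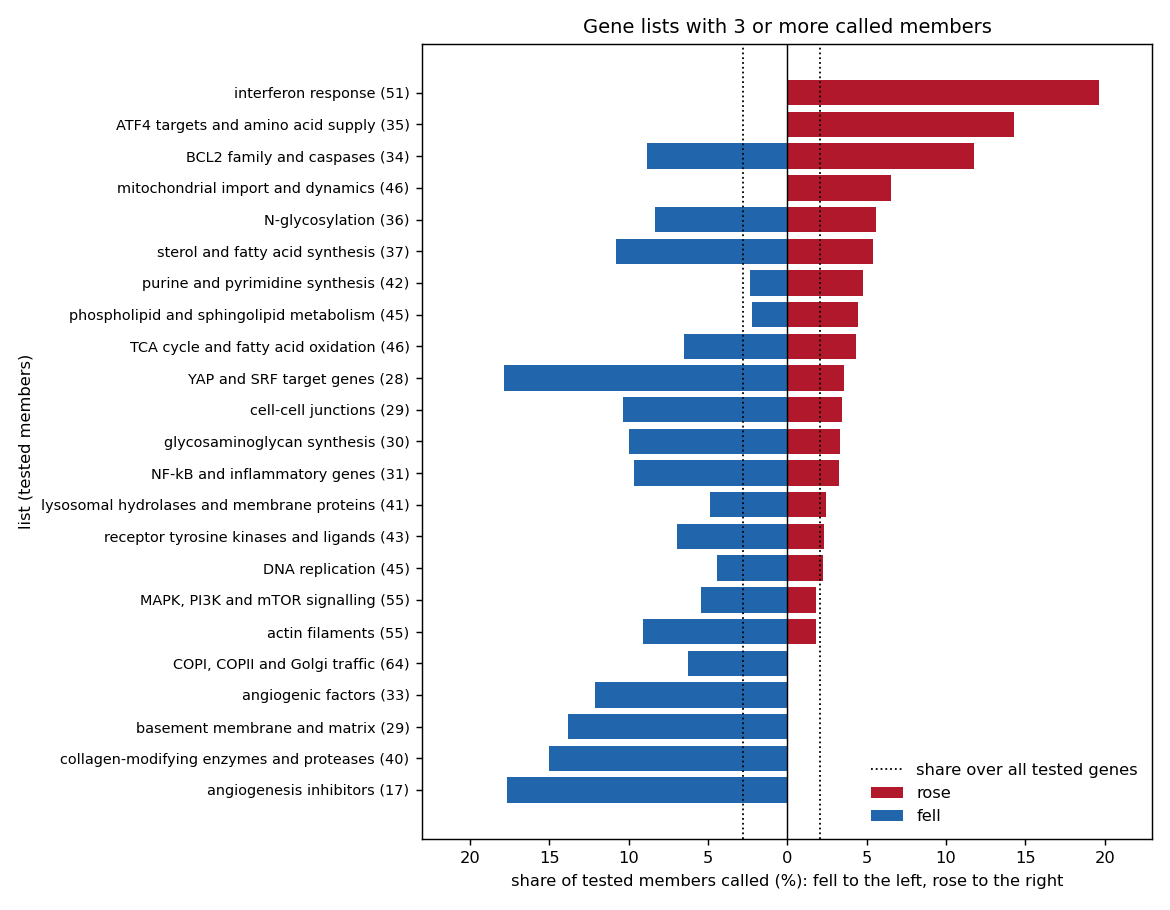
Share of tested members called (%) for the 23 lists with at least 3 called genes, fallen to the left and risen to the right, with the number tested in brackets. Dotted lines mark the shares over all tested genes, 2.8% fallen and 2.07% risen; the interferon list reaches 19.6% risen.

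Of the 536 called genes 403 were in no list, 176 of them higher and 227 lower, so families were also formed from gene symbols. Solute carriers, the membrane transporters, had 9 falls and 2 rises among 206 tested (5.34%, near the 4.88% of all genes). Among the falls were SLC16A9 (-0.76), SLC16A10 (-0.65), SLC25A51 (-0.87), SLC35A3 and SLC38A1 (-0.60). Zinc finger proteins had 7 falls and 2 rises among 384 (2.34%, under the share of all genes), led by ZNF14 (-1.05, held). The proteasome had 4 rises and 1 fall among 42 (11.9%, against 4.88% of all genes), all held. PSMB9, PSMB10 (0.53), PSMB7 (0.48) and PSMC3 (0.45) rose, and PSMD6 (-0.71) fell. Protein tyrosine phosphatases had 3 falls and 0 rises among 25 (12%, with 1 higher and 6 lower at an unadjusted p under 0.05), namely PTPN12, PTPRE (-0.78) and PTPN14. Serine/threonine phosphatase subunits had 4 rises and 2 falls among 57 (10.5%), with the catalytic subunit PPP1CC at -0.90. With the 3 dim arrays left out, 3 of the 11 solute carriers, 2 of the 9 zinc finger proteins, 1 of the 5 proteasome genes (PSMD6), all 3 tyrosine phosphatases and 1 of the 6 serine/threonine phosphatase subunits were called. Subunits of complex I and of cytochrome c oxidase and ATP synthase had medians of 0.17 and 0.18 with 1 and 0 calls among 38 and 30 tested (10 and 8 higher, 0 and 1 lower at an unadjusted p under 0.05). Both medians turned negative (-0.06 and -0.07) under the 75th percentile scaling over all probes, where the median of all genes was -0.16. Cytosolic ribosomal proteins had 0 calls in limma among 75 (7 higher and 3 lower at an unadjusted p under 0.05).

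Other called genes outside the lists were chosen after their values were seen and are given as values. Cell cycle genes that fell and were held were TFDP1, the dimer partner of E2F factors (-0.91), SKP2, the F-box protein that marks cell cycle inhibitors for destruction (-0.65), the centriole protein STIL (-0.66) and the mitotic kinase PBK (-0.66). Control siRNA lowered TFDP1 as well (-0.39). The RNA methyltransferase NSUN2 fell by 1.03 and MTRR, which restores methionine synthase, by 1.05, both held. IGFBP3, a binding protein of insulin-like growth factors, fell by 0.71 on top of a control fall of 1.52, and the mRNA-binding protein IGF2BP3 fell by 0.76. The G-protein subunit GNA13 fell by 0.87 (held), while GNA11 rose by 0.65 (neither). The cyclic AMP response factors CREB1 (-0.73) and CREB5 (-0.59) fell and belonged to neither class, as did the rises of LAMTOR4 (0.77) and LAMTOR2 (0.64), which anchor mTORC1 to the lysosome. Of the genes in this paragraph TFDP1, NSUN2, MTRR and GNA13 were called without the 3 dim arrays.

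A feature that the choice of arrays did not use was gene length, chosen after the data were seen and given as a description. The span of a gene in the RefSeq table (GRCh38.p14, introns included) was known for 10983 of the tested genes. Risen genes had a median span of 8.5 kb and fallen genes 47.4 kb, against 28.5 kb over all tested genes. Held changes alone showed 8.29 and 47.5 kb. With the tested genes split by span into 5 classes of equal size, 118 rose and 37 fell in the shortest class (up to 8.79 kb), and 15 rose and 87 fell in the longest (over 86.6 kb). The median change over the 5 classes, shortest first, was 0.09, 0.02, -0.04, -0.07 and -0.08, while the control siRNA minus untransfected medians in the shortest and longest classes were 0.04 and 0.01.

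The length pattern differed between single arrays. Measured as the median of the shortest class minus that of the longest, each relative to the mean of all 12 arrays, it was 0.23, 0.09, 0.05 and 0.17 on EZH2 siRNA arrays 1 to 4, against 0.06, -0.08, -0.10 and -0.06 with control siRNA and -0.11, -0.04, -0.03 and -0.12 in untransfected cells. EZH2 siRNA arrays 1 and 4, the dim ones, had the largest values, while the dim untransfected array had the lowest. Control siRNA array 1 (0.06) lay within the EZH2 siRNA range. Without the 3 dim arrays the shortest class still lay 0.12 above the longest, against 0.17 with them. Other scalings and background steps gave 0.163 to 0.22, and array brightness as a covariate gave 0.15. RNA quality values per array were not used here, and the part of gene length, brightness and RNA quality in the list counts above was not tested. The 20 largest rises had a median span of 7.71 kb and the 20 largest falls 20.5 kb.

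**Figure D5:**
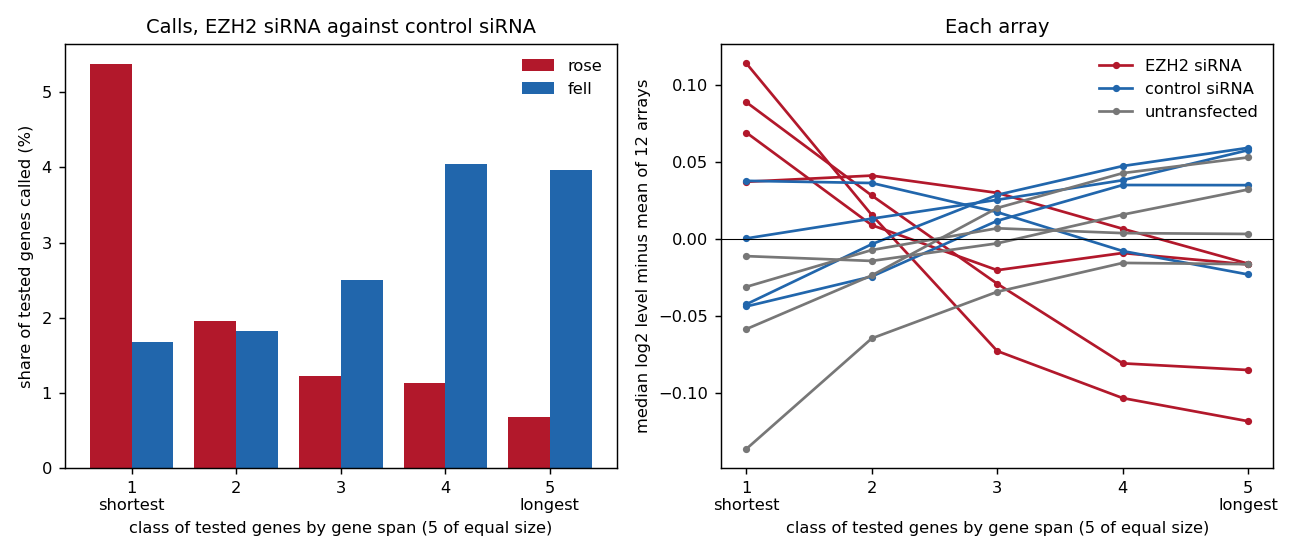
Left, share of tested genes called (%) in each of 5 equal classes of gene span; right, median level of each class on each of the 12 arrays relative to the mean of all arrays (log2). In the shortest class 5.37% rose and 1.68% fell, in the longest 0.683% rose and 3.96% fell, and EZH2 siRNA arrays 1 and 4 have the steepest lines.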

How the data were processed

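RNA from 12 samples of one cell line, 4 per group, was measured on Illumina bead arrays. In the deposited raw table every probe has 1 intensity on each array. The authors exported these with BeadStudio 3.2, per the submitters' processing notes, and how they treated background there is not stated in the labels. The deposited log2 table equals log2 of that table after quantile normalisation, to within 5e-05, and served as an alternative. The labels name both HumanHT-12 and Human-6 arrays; the files hold 48803 probes. The number of sample columns not used was 0.

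Background was corrected by normexp with an offset of 50, followed by quantile normalisation (limma 3.58.1, R 4.3.3). The offset shrinks changes of dim probes. The files used here hold no detection p-values, so a probe counted as above background if it exceeded the array's signal mode, with the spread below it mirrored, at p under 0.01. At least 4 arrays had to pass: 17363 probes were tested and 31440 were not. Of the probes, 28098 had 1 symbol in the probe table, 13 had several and 20692 had none, and 82 called probes have no single gene name. All 12 arrays entered 1 model with 3 groups (lmFit, eBayes), adjusted over all tested probes by Benjamini-Hochberg at 0.05.

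The comparison, the 51 gene lists, the 26 symbol families and the tests were chosen with earlier results of these data known. Genes named are EZH2, the 20 largest rises and 20 largest falls among called genes whose arrays do not overlap, 8 of each class, and up to 3 called genes per list; other names were chosen after their values were seen. Alternatives covered scaling, background, filter, threshold, samples in the fit, weights, brightness, probe averaging, the replicate block and leaving out each array. The pipeline was tested on simulated data, and figures were drawn with matplotlib 3.10.9.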

Additional observations from a re-analysis of the deposited data

Results flagged for a closer look

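In 387 groups of 4 arrays formed by the named genes, 13 held an array whose distance to its nearest neighbour took up most of the group's range (Dixon's test at the 95% level). Chance alone marks about 1 group in 20. All values are log2 levels.

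With EZH2 siRNA, GANAB was low on array 2 (8.4) and PCK2 high on array 4 (9.52). With control siRNA, array 1 was low for EIF3E (11.4) and SCML1 (7.45), array 2 was low for MAPKAPK3 (10.8) and NEU1 (8.02), and array 3 was high for PFKL (9.19). In untransfected cells, array 4 was high for TRIM16L (8.06) and PSMB9 (7.25), array 2 was high for DPM3 (10.1), and array 1 was low for ISG15 (7.58), AOC4P (9.49) and DDX51 (10.2).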

How the results depend on the processing

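In the main setting 318 probes rose and 415 fell with EZH2 siRNA against control siRNA, 309 gene changes were held and 55 only undid a control siRNA change. These 4 counts, in that order, became 9, 135, 41 and 14 with 75th percentile scaling over all probes and 41, 56, 44 and 17 with that scaling over probes above background on all arrays. They were 78, 159, 94 and 25 at an adjusted p under 0.01, 583, 695, 464 and 141 with array weights, and 62, 110, 63 and 35 without the 3 dimmest arrays. With the background taken from each array itself (offset 16), 191 probes were higher and 33 changes only undone. Leaving out 1 array at a time gave 99 to 642 higher, 184 to 651 lower, 121 to 550 held and 29 to 92 only undone. The lowest came without EZH2 siRNA array 1 (only undone: control siRNA array 3) and the highest without EZH2 siRNA array 3. EZH2 siRNA array 4 (145 higher, 234 lower) and control siRNA arrays 2 (99, 197), 3 (109, 203) and 4 (150, 228) also moved counts by over 1.5 times. The cause of these moves was not tested. Deviations of EZH2 siRNA and control siRNA arrays of the same number correlated at 0.24, 0.13, 0.22 and -0.12, and not every array correlated best with its own number. These weak and mixed values cannot settle whether the numbers pair the arrays, and the main model treated them as unpaired. With the replicate block the counts were 333, 434, 325 and 53. The deposited log2 table, uncorrected background, cyclic loess, the other filters, the fit of only the groups compared, and the brightness covariate kept each count within 1.5 times. The mean over probes gave 339 held and 63 only undone changes; probe counts do not apply to it.

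Of the 129 named genes, 28 were called under every alternative in which they were tested. This count leaves out the stricter threshold, an adjusted p under 0.01, at which 52 of the 129 were not called. It also passes over alternatives whose filter left a gene untested, as for DIPK2A. Counted in the same way, 17 of the 20 largest falls and 5 of the 20 largest rises were called throughout. Of the other rises, 12 were lost in a single setting. One named change turned sign: PAIP1, with a change of -0.44 in the main setting, was 0.0766 under scaling over probes above background on all arrays. Fold changes of dim probes are limited by signal over background.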
